A study of Mus musculus with 6 samples.

Results

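The genes described here code for 3 families of guidance cues and their receptors: the Eph receptors with the ephrins, the Robo receptors with the Slits, and the netrin and RGM ligands with Dcc, the Unc5 receptors and neogenin. Members were chosen by gene symbol, with earlier results of these data known. The symbols matched 41 of the 24421 listed genes, and all 41 passed the filter on low values. Their RNA was measured by RNA-seq in olfactory bulb cells of 6 mice, 3 control and 3 Sox9 KO, with 1 mouse per library. Every mouse, controls included, had received AAV-GFAP-iCre-P2a-TurboRFP, a virus in which a GFAP promoter drives the iCre recombinase and the red protein TurboRFP. Sox9 KO mice carried Sox9fl/fl alleles, which Cre deletes, and control mice were C57BL/6J with intact Sox9 (Sox9+/+ in the study's methods), while the strain is labelled C57BL/6 throughout. The methods give adult males, and bulbs were taken 4 weeks after injection. Cells were gated on TurboRFP, which the viral GFAP promoter drives, both groups carried Cre, and the purity of the sort was checked by no measurement on the sorted cells other than the RNA itself. The targeted gene went with the labels: Sox9 stood at 5185, 6562 and 4921 normalized counts in the control libraries and at 52.6, 64.3 and 57.7 in the Sox9 KO libraries.

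Guidance cues steer axons and migrating cells by attraction or repulsion and later help to shape the contacts between cells, in the adult brain also between astrocytes and neurons. Ephrins are held in the membrane of the signalling cell, so Eph signalling needs cell contact, and it can run in both directions; EphA receptors bind mostly the lipid-anchored ephrin-A proteins and EphB receptors mostly the transmembrane ephrin-B proteins. Slits are secreted and act through Robo receptors. In the adult forebrain, Slit released by neuroblasts on their way to the olfactory bulb acts on Robo receptors of the astrocytes they pass. Netrins attract through Dcc and repel through Unc5 receptors, and neogenin is the receptor that netrins share with the repulsive guidance molecules (RGMs).

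Across the 41 genes the Sox9 KO libraries were mostly lower. A gene was called when limma, a linear model fitted to log2(normalized count + 1) over all 18413 genes tested, gave a Benjamini-Hochberg adjusted p under 0.05 together with a 1.5-fold change. By this rule 33 of the 41 fell (80.5%, against 28.8% of all genes tested), 2 rose (4.88%, against 22.2%) and 6 were not called. The 2 that rose were Epha1 and Rgmb, and the 6 not called were Epha2, Epha8, Slit1, Slit2, Unc5a and Ntn5. The groups did not overlap, with every Sox9 KO library below every control library, for 34 genes (82.9%, against 34.7% of all genes tested), and they lay apart the other way for 2 (4.88%, against 32.4%). Their median log2 fold change was −2.31, and −2.44 without Epha8 and Ntn5, which had too few reads for a fold change, while the median of all genes tested was −0.07. After quantile normalization, which raised the median of all genes to 0.19, the median of the 41 was −1.77. The background share depends on the scaling: of all genes, 5299 were called lower and 4090 higher here, against 4122 and 5353 after quantile normalization and 6191 and 2936 with every library scaled to the same total. Fewer cells of a type and less RNA per cell cannot be told apart in these bulk libraries.

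**Figure D1:**
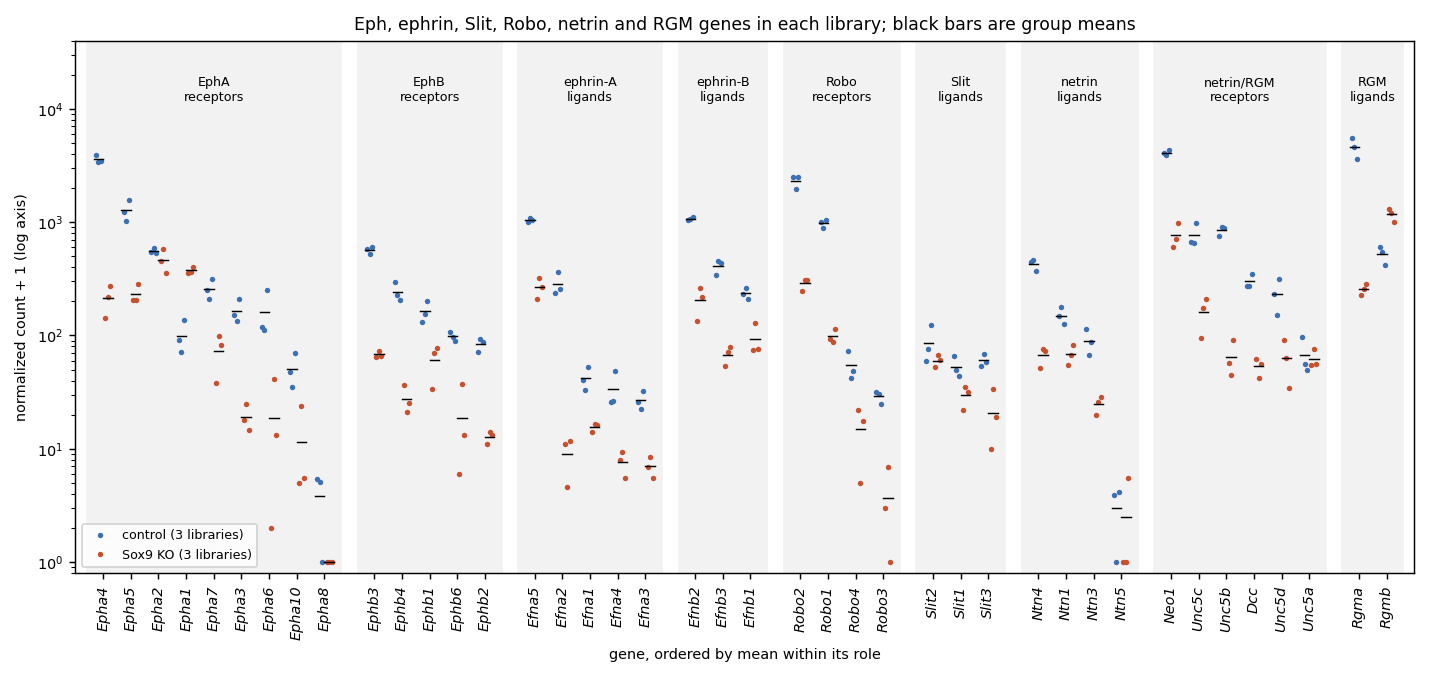
Normalized counts plus 1, on a log axis, of the 41 genes in each of the 3 control (blue) and 3 Sox9 KO (red) libraries, grouped by role and ordered by mean within a role, with black bars for group means. The control points lie above the Sox9 KO points for 34 genes and below them for Epha1 and Rgmb.

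The sorted cells held RNA of several cell types, and these marker lists moved between the groups. All 13 astrocyte markers, Slc1a2, Slc1a3 and Aqp4 the highest of them, were detected in every library, and all 13 fell (median log2 fold change −3.99, range −5.25 to −2.72); their summed level was 572741 to 639587 normalized counts in the control libraries and 40092 to 52875 in the Sox9 KO libraries. All 11 microglia and macrophage markers, Csf1r and C1qb among them, rose (median 1.995), with sums of 173487 to 199447 and of 620400 to 736811. All 12 interneuron and neuroblast markers fell (median −3.60; sums of 13797 to 17635 and of 1252 to 2050), as did 11 of 12 neuron markers (−2.58; 25463 to 31879 and 3884 to 6668), 6 of 6 oligodendrocyte precursor markers (−3.17; 6820 to 7717 and 578 to 907) and 7 of 8 oligodendrocyte markers (−1.46; 36424 to 62348 and 15511 to 24940). Endothelial markers went both ways (4 of 8 fell and 2 rose; sums of 1325 to 2486 and of 1764 to 2267), as did border macrophage markers (3 of 5 fell and 2 rose), and 4 of 7 mitral and tufted cell, 4 of 6 mural cell, 6 of 6 olfactory ensheathing cell and 2 of 4 ependymal cell markers fell. No marker of these lists was at 0 in every Sox9 KO library. Of the 41 guidance genes, 3 fell by more than the astrocyte marker median and 13 lay within the range of the astrocyte markers. More lay within the ranges of neuron (26), oligodendrocyte (23), oligodendrocyte precursor (29) and olfactory ensheathing cell (28) markers. The same held for ependymal (31), mural (33), border macrophage (30) and endothelial (19) markers. Fewer lay within those of interneuron and neuroblast (11), mitral and tufted cell (10) and microglia and macrophage (1) markers. These ranges differ in width. The part of these cell types in the results below was not tested.

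**Figure D2:**
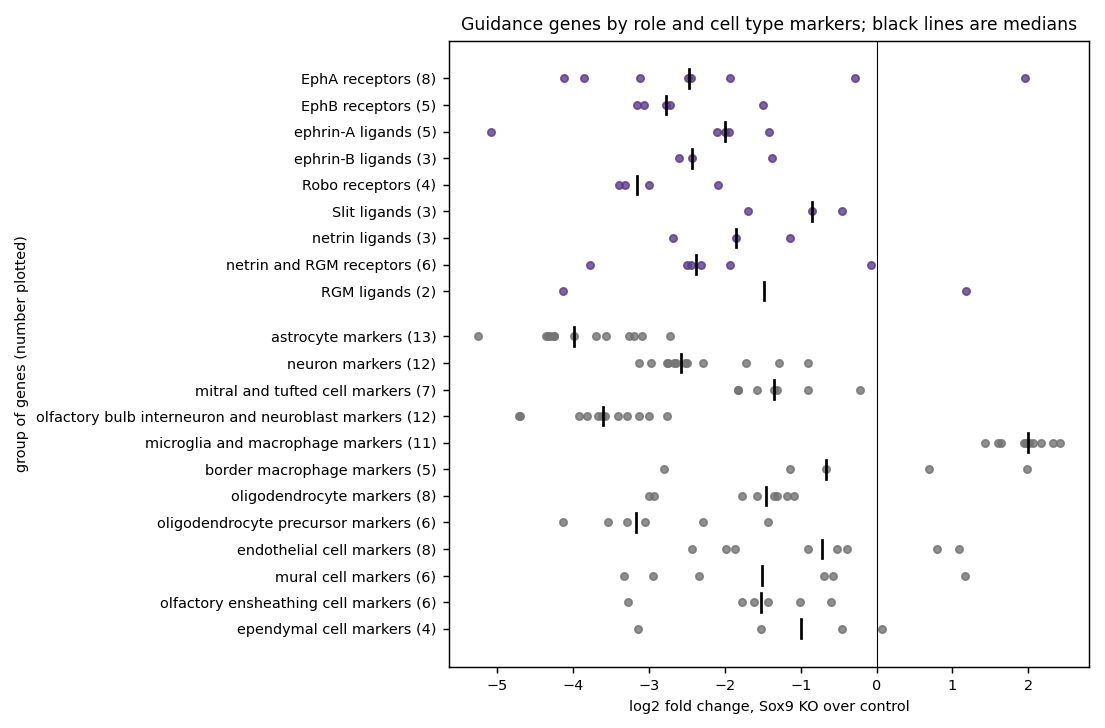
Log2 fold change (Sox9 KO over control) of each guidance gene by role (purple) and of each cell type marker by list (grey), with a black line at each median and the number of genes plotted in parentheses; Epha8 and Ntn5 are left out for too few reads. The guidance genes that fell lie mostly between −1 and −4, the astrocyte markers centre on −3.99 and the microglia and macrophage markers on 1.995.

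Promoter sequence is shown for 3 receptors to put the genes in their place on the genome: Epha4, which fell furthest among the receptors with over 100 reads in every library, Epha1, which rose, and Ephb1, whose window holds the ACAAT core that Sox proteins bind. RefSeq starts on GRCm38.p6 were matched for 35 of the 41 genes, and Slit1, Ntn1, Rgma, Unc5d, Dcc and Efnb3 were not matched. Each line gives the 250 bases before the start, 5′ to 3′ on the gene's own strand, with ACAAT or its other-strand form ATTGT in capitals. The windows are chr1:77515089-77515338 for Epha4, chr6:42373269-42373518 for Epha1 and chr9:102354694-102354943 for Ephb1, all 3 on the minus strand.
Epha4: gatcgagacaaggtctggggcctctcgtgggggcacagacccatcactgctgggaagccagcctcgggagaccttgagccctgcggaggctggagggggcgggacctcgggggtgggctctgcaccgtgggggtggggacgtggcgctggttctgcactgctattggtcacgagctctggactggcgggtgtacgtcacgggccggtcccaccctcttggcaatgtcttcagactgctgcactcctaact
Epha1: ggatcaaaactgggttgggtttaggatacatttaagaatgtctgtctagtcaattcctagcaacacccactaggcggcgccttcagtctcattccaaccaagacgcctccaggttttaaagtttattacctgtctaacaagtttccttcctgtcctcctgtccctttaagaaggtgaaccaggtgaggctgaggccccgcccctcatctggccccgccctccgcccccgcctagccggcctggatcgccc
Ephb1: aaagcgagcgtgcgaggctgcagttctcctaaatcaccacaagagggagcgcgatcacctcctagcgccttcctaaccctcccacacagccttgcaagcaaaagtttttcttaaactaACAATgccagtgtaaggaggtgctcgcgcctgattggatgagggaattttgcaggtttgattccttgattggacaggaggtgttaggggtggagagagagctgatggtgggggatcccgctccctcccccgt
Searched on both strands, ACAAT was found in 5 of the 35 genes (Efna3, Ephb1, Ntn4, Rgmb and Robo4; 14.3%), against 30.9% of the 27025 genes with a window. The other Sox core ACAAAG was found in 3 (Efna2, Efna4 and Rgmb; 8.57%), against 18.6%. These windows were richer in G and C than most, with a median of 65.2% over the 42 starts of the 35 genes against 52.4% over all starts. A match marks only letters in a window and not a bound site.

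EphA receptors, 9 genes, included both the steepest fall and the only rise among the Eph receptors: 6 fell, Epha1 rose and 2 were not called. Epha4 (chr1:77367185-77515088, minus strand), a receptor that binds ephrins of both classes, stood at 3934, 3379.7 and 3452 normalized counts in the control libraries and at 143, 219 and 275 in the Sox9 KO libraries. The lowest control library lay far above the highest Sox9 KO library, and the group means, 3589 ± 301 and 212 ± 66.3 (SD, n = 3 each), differed 16.9-fold. Its log2 fold change was −4.12 (SE 0.20, limma adjusted p = 7.4e-08). Epha5, an ephrin-A receptor of the nervous system, stood at 1229, 1024 and 1559 in control and at 205, 205 and 286 in Sox9 KO libraries, a fall of 5.48-fold between the means (log2 fold change −2.45, SE 0.19, limma adjusted p = 1.4e-06). Every Sox9 KO library lay below every control library for both genes.

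Epha2 and Epha1, both best known as receptors of epithelial cells, went apart from these. Epha2 stood at 547, 592 and 536 normalized counts in control and at 456, 584 and 355 in Sox9 KO libraries. Its groups overlapped, since the second Sox9 KO library reached the level of the controls, and it was not called (log2 fold change −0.29, SE 0.18, limma adjusted p = 0.18). With every library scaled to the same total without Rn45s, the ribosomal RNA precursor gene, Epha2 was called lower at −0.62. Epha1 (chr6:42358487-42373268, minus strand; its promoter is the second line above) stood at 90.6, 70.2 and 136 in control and at 358, 363 and 399.5 in Sox9 KO libraries. Its groups did not overlap and all Sox9 KO libraries were the higher (log2 fold change 1.96, SE 0.24, limma adjusted p = 5.1e-05). The exons of Epha1 share 236 bases with Zyx, a gene on the other strand that was 1449 ± 108 in control and 3233 ± 257 in Sox9 KO libraries (SD, n = 3), and no source used here says whether reads were counted by strand, so reads of the shared bases cannot be told apart. All 11 microglia and macrophage markers rose in the same libraries, by log2 fold changes of 1.43 to 2.42. So did 2 of 8 endothelial and 2 of 5 border macrophage markers, while 4 of the endothelial and 3 of the border macrophage markers fell. The part of these cell types in the Epha1 values was not tested.

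Among the scarcer EphA receptors, Epha7, Epha3, Epha6 and Epha10 fell, with log2 fold changes of −1.93, −3.11, −3.86 and −2.49. Epha6 varied most between Sox9 KO libraries, which held 1, 101 and 8 of its reads, and its SE of 0.89 was the largest of the 35 called members. Its log2 fold change was −2.68 without Sox9 KO replicate 1, −4.86 without Sox9 KO replicate 2 and −2.90 in edgeR on recovered reads, and that of Epha10 was −3.22 without Sox9 KO replicate 2, all still called. Epha8 had 3, 6 and 0 reads in the control libraries and 0 in each Sox9 KO library, where a count of 0 allows up to 3 reads, so that no difference was detectable at this depth.

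All 5 EphB receptors fell, with a median log2 fold change of −2.77. Ephb3 stood at 577, 525 and 608 normalized counts in control and at 63.5, 72.2 and 65.3 in Sox9 KO libraries. Its 3 libraries lay close together within each group, and the fall was 8.51-fold between the means (log2 fold change −3.07, SE 0.17, limma adjusted p = 1.8e-07). Ephb4, known from the parting of arteries and veins, stood at 295, 224 and 206 in control and at 35.7, 20.1 and 24.3 in Sox9 KO libraries (−3.15, SE 0.30). Ephb1, a receptor with roles in axon crossing and at synapses, stood at 132, 152 and 202 in control and at 32.8, 69.5 and 76.0 in Sox9 KO libraries. This was the smallest fall of the 5 (−1.50, SE 0.35, limma adjusted p = 0.0035), and its groups did not overlap. After quantile normalization Ephb1 no longer passed the call (−0.71). Ephb6, whose kinase domain is inactive, and Ephb2 fell too, with log2 fold changes of −2.77 and −2.73. Ephb6 stood at −2.14 without Sox9 KO replicate 1 and at −3.47 without Sox9 KO replicate 2.

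The 8 ephrins all fell, 5 of 5 of class A and 3 of 3 of class B. Efna5 stood at 1009.8, 1095 and 1047 normalized counts in control and at 210.5, 317 and 267 in Sox9 KO libraries. Its groups lay well apart with means that differed 3.96-fold (log2 fold change −2.002, SE 0.16, limma adjusted p = 1.9e-06). Efna2 (chr10:80179482-80190010, plus strand) fell furthest of the 41 genes, from 235, 365 and 257 in control libraries to 9.93, 3.55 and 10.6 in Sox9 KO libraries, a 35.6-fold difference of the means (−5.08, SE 0.42, limma adjusted p = 2.4e-06). The Sox9 KO values rest on 10, 9 and 7 reads. Efna1 stood at 39.5, 31.7 and 52.0 in control and at 12.9, 15.4 and 15.2 in Sox9 KO libraries (−1.42, SE 0.38), and it lost the call after quantile normalization (−0.57). Efna4 and Efna3 fell as well (−2.11 and −1.95). Efna1, Efna3 and Efna4 are neighbours on chromosome 3, between 89271733 and 89338028, and their log2 fold changes lay between −2.11 and −1.42.

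Of the transmembrane ephrins, Efnb2, the partner of Ephb4 in vessels, stood at 1045, 1067 and 1109.7 normalized counts in control and at 134, 263 and 217 in Sox9 KO libraries. The controls spread by less than the Sox9 KO libraries, and no value overlapped (log2 fold change −2.44, SE 0.22, limma adjusted p = 4.5e-06). Efnb3, known from the spinal cord midline, stood at 339, 449 and 438 in control and at 52.6, 69.9 and 77.5 in Sox9 KO libraries (−2.61, SE 0.22). Efnb1, an X-linked ephrin, stood at 231, 263 and 208 in control and at 73.5, 128 and 74.4 in Sox9 KO libraries (−1.38, SE 0.26). It was the least changed of the 3, and its groups were apart as well.

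The Robo receptors fell together. All 3 Slits had log2 fold changes below 0, on 9 to 167 reads per library, and 2 of them did not pass the test. Robo2 stood at 2486, 1957 and 2522 normalized counts in control and at 248, 305 and 309.9 in Sox9 KO libraries. Robo1 stood at 1011, 885 and 1045 in control and at 91.3, 87.2 and 114 in Sox9 KO libraries. These are the Robo receptors of migrating neurons and their paths, and both fell in every library, by 8.07-fold (log2 fold change −3.01, SE 0.14, limma adjusted p = 5.3e-08) and by 10.1-fold (−3.32, SE 0.16, limma adjusted p = 7.1e-08) between the means. Robo4, known from endothelial cells, stood at 71.6, 41.3 and 47.3 in control and at 20.8, 3.95 and 16.7 in Sox9 KO libraries (−2.09, SE 0.57, limma adjusted p = 0.0091). It rested on 10 to 60 reads and lost the call without control replicate 1 (limma adjusted p = 0.051) and after quantile normalization (−1.22), while without Sox9 KO replicate 2 it stood at −1.43 and was still called. Robo3, the Robo of commissural axons, fell by 3.39 on the log2 scale (SE 0.71) from 15 to 43 reads in control libraries to 2, 15 and 0. Its log2 fold change was −4.06 without Sox9 KO replicate 2 and −2.66 without Sox9 KO replicate 3, and it ran from −4.69 to −2.18 with pseudocounts of 0.1 and 5. Robo3 and Robo4 lie 553 bases apart on chromosome 9.

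Slit2 stood at 58.5, 74.3 and 123 normalized counts in control and at 51.6, 65.9 and 59.2 in Sox9 KO libraries. Its groups overlapped (log2 fold change −0.46, SE 0.33, limma adjusted p = 0.24). Slit1, the Slit of the neuroblasts, stood at 64.3, 48.9 and 42.6 in control and at 20.8, 34.3 and 30.4 in Sox9 KO libraries. Every Sox9 KO library was lower, but the difference missed the threshold (−0.85, SE 0.36, limma adjusted p = 0.061). Slit3 stood at 52.6, 68.1 and 56.7 in control and at 8.93, 32.4 and 18.2 in Sox9 KO libraries (−1.69, SE 0.46, limma adjusted p = 0.0091). The Slits depended on the scaling: quantile normalization put Slit1 at 0.049 and Slit2 at 0.37, above 0, and took the call from Slit3 (−0.85), while scaling to the same total called Slit1 lower (−1.09). Slit levels were low beside those of Robo1 and Robo2 in both groups, but not beside those of Robo3 and Robo4. Divided by transcript length in kb, Robo2 was 34.5 ± 13.2 times Slit2 in control and 5.67 ± 0.358 times in Sox9 KO libraries (SD, n = 3), ranges that did not overlap (two-sided exact permutation p = 0.1, the smallest that 3 against 3 can give).

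**Figure D3:**
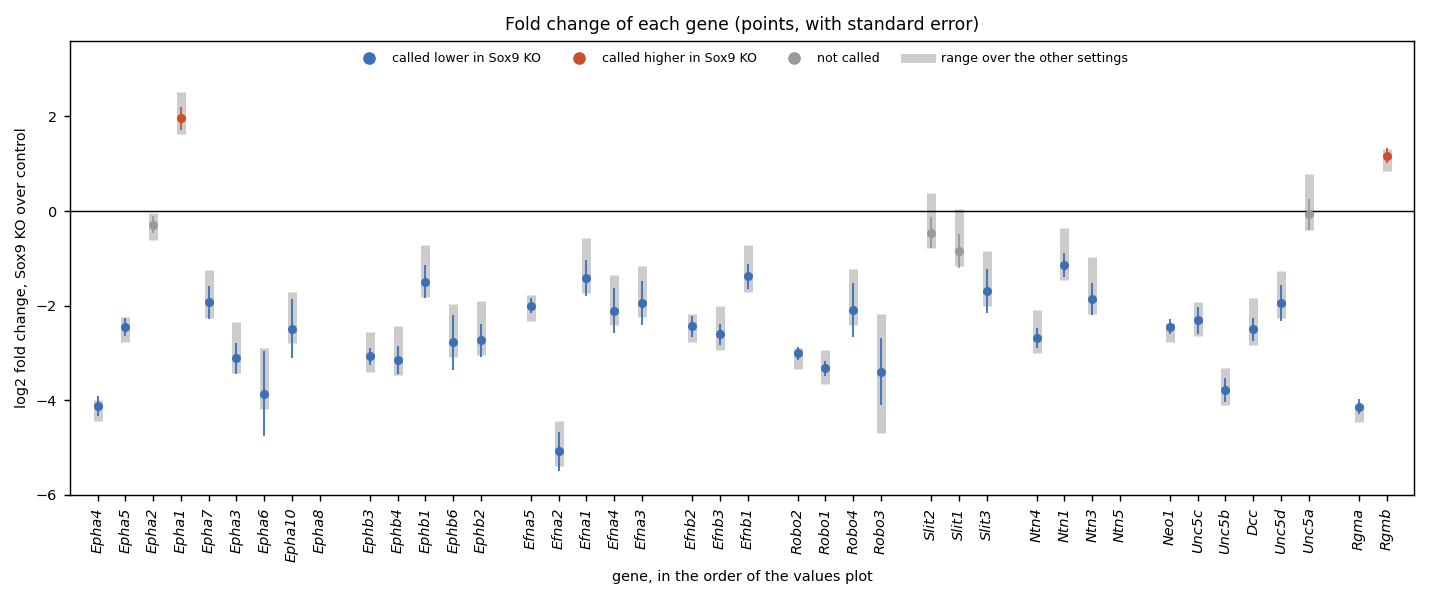
Log2 fold change (Sox9 KO over control) of each gene with its standard error (thin bars), coloured by call, and the range over the other pseudocounts, filters, scalings and tools (wide grey bars); Epha8 and Ntn5 had too few reads and have no point. The grey ranges of Slit1, Slit2 and Unc5a cross 0, and those of Epha1 and Rgmb stay above it.

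Of the 4 netrins, 3 fell. Ntn4, a laminin-like netrin of basement membranes, stood at 439.9, 459.7 and 369 normalized counts in control and at 50.6, 74.6 and 71.4 in Sox9 KO libraries (log2 fold change −2.68, SE 0.22, limma adjusted p = 2.2e-06). Ntn1, the netrin that attracts axons through Dcc, stood at 146, 176 and 125 in control and at 53.6, 66.3 and 82.0 in Sox9 KO libraries. The fall of Ntn1 was smaller, 2.21-fold between the means (−1.14, SE 0.26, limma adjusted p = 0.0034), and it lost the call after quantile normalization (−0.35). Ntn3 stood at 114, 66.8 and 86.7 in control and at 18.9, 24.9 and 27.3 in Sox9 KO libraries (−1.85, SE 0.34), with 89 exon bases shared with Tbc1d24 on the same strand, which was 1542 ± 95.0 in control and 1320.1 ± 91.0 in Sox9 KO libraries (SD, n = 3). No source used here says how reads of those bases were assigned. Ntn5 had 0 to 3 reads in every library.

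Among the 6 netrin and RGM receptors, 5 fell. Neo1, neogenin, the most abundant of them, stood at 4048, 3893 and 4347 normalized counts in control and at 609, 703 and 987 in Sox9 KO libraries. The fall was 5.34-fold between the means, with no overlap (log2 fold change −2.45, SE 0.16, limma adjusted p = 4.3e-07). Unc5c, a netrin receptor for repulsion, stood at 662, 654 and 979 in control and at 93.3, 175 and 209.6 in Sox9 KO libraries (−2.31, SE 0.29). Unc5b, which also acts in vessels, stood at 757, 902 and 883 in control and at 56.6, 43.4 and 89.6 in Sox9 KO libraries, a 13.4-fold difference of the means (−3.78, SE 0.25, limma adjusted p = 5.1e-07). Dcc, the receptor for netrin attraction, and Unc5d fell too, with log2 fold changes of −2.50 and −1.94. Unc5a was the receptor that did not fall: its log2 fold change was −0.07 (SE 0.34, limma adjusted p = 0.87), and its sign turned without Sox9 KO replicate 1 (0.01), without control replicate 1 (0.22) and after quantile normalization (0.78). Unc5a shares 34 exon bases with Hk3 on the other strand, which was 481 ± 68.2 in control and 1863 ± 242 in Sox9 KO libraries (SD, n = 3).

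The RGM ligands, which bind neogenin and also act as co-receptors for bone morphogenetic proteins, went in opposite directions. Rgma (chr7:73375509-73419899, plus strand) stood at 5511, 4619.8 and 3592 normalized counts in control and at 228, 258 and 281 in Sox9 KO libraries, a 17.9-fold difference of the means (log2 fold change −4.14, SE 0.16, limma adjusted p = 1.8e-08). Rgmb (chr17:15803188-15831039, minus strand) stood at 605, 543 and 415 in control and at 1298, 1202 and 1006 in Sox9 KO libraries (1.17, SE 0.16, limma adjusted p = 9.8e-05). Rgma shares 258 exon bases with A730056A06Rik on the other strand, a gene at 185 ± 50.8 in control and 10.3 ± 10.0 in Sox9 KO libraries (SD, n = 3). Neither RGM gene had overlapping groups, and both directions held under every alternative run, with log2 fold changes of −4.47 to −3.99 for Rgma and of 0.85 to 1.32 for Rgmb. Per kb of transcript, Rgma was 13.9 ± 0.495 times Rgmb in control and 0.355 ± 0.0831 times in Sox9 KO libraries (SD, n = 3), so that the order of the 2 was reversed in every library (two-sided exact permutation p = 0.1, the smallest possible). Rgma fell as did all 13 astrocyte, 12 interneuron and neuroblast, 6 oligodendrocyte precursor and 6 olfactory ensheathing cell markers. Rgmb rose by less than each of the 11 microglia and macrophage markers (1.43 to 2.42). In those libraries 2 of 8 endothelial and 2 of 5 border macrophage markers rose too, while 4 of the endothelial and 3 of the border macrophage markers fell. The part of any of these cell types in the values of Rgma and Rgmb was not tested.

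The make-up of each family was described by the share of each gene in it. Levels of different genes are compared here per kb, as the normalized count divided by the length of the longest protein-coding transcript in the GENCODE annotation. Summed per kb, the 41 genes came to 4974 ± 218 in control and 1069 ± 98.8 in Sox9 KO libraries (SD, n = 3). In control the highest level per kb was that of Rgma (1276 ± 268), followed by Epha4 (567 ± 47.6) and Neo1 (555 ± 31.3), which differed by less than their spread, and then by Robo2 (270.2 ± 36.8) and Efna5 (261 ± 10.6), which did not differ beyond theirs either. In Sox9 KO libraries the order was Rgmb (205 ± 26.1), then Epha2 (119 ± 29.3), Epha1 (114 ± 6.88) and Neo1 (104 ± 26.7), 3 levels within their spread of each other. The Epha1 level may include reads of the bases shared with Zyx.

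Epha4 made up 47.3%, 45.8% and 40.4% of the Eph receptor level per kb in the control libraries and 7.13%, 8.63% and 12.3% in the Sox9 KO libraries. The mean share of Epha2 was 11.3% ± 1.51 in control and 33.2% ± 6.50 in Sox9 KO libraries, and that of Epha1 was 2.34% ± 0.648 and 32.2% ± 4.01 (SD, n = 3). EphA receptors as a class took 80.9% ± 0.544 and 89.2% ± 0.911 of that level. Reads of the 236 exon bases that Epha1 shares with Zyx cannot be told apart. The shares of Epha1, of the EphA class and of the other Eph receptors depend on them to an unknown extent. Among the ephrins Efna2 went from 15.2% ± 2.75 to 2.31% ± 1.36 and Efnb1 from 8.21% ± 0.887 to 15.8% ± 2.77, while the class A share was 51.5% ± 0.709 and 48.5% ± 2.95, with overlapping groups. Among the netrins Ntn4 went from 72.4% ± 1.84 to 51.6% ± 4.34 and Ntn1 from 15.8% ± 1.68 to 32.8% ± 1.80. Unc5b went from 17.0% ± 1.79 to 6.73% ± 1.59 of the netrin and RGM receptors and Unc5a went from 1.98% ± 0.816 to 9.94% ± 2.72, whereas Neo1 held 65.4% ± 1.41 and 65.2% ± 3.46. The Unc5a share has the same limit, from the exon bases it shares with Hk3. The netrin shares have it too, from the exon bases that Ntn3 shares with Tbc1d24. Of 45 shares compared, 22 lay apart between the groups, with the smallest two-sided exact permutation p that 3 against 3 allows, 0.1, and an adjusted p of 0.205, so that no share could pass a threshold of 0.05. The 22 are not separate shifts, since the shares of a family add up to its whole. The EphA and EphB classes mirror each other, as do Rgma and Rgmb, and each class is counted beside its own genes.

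**Figure D4:**
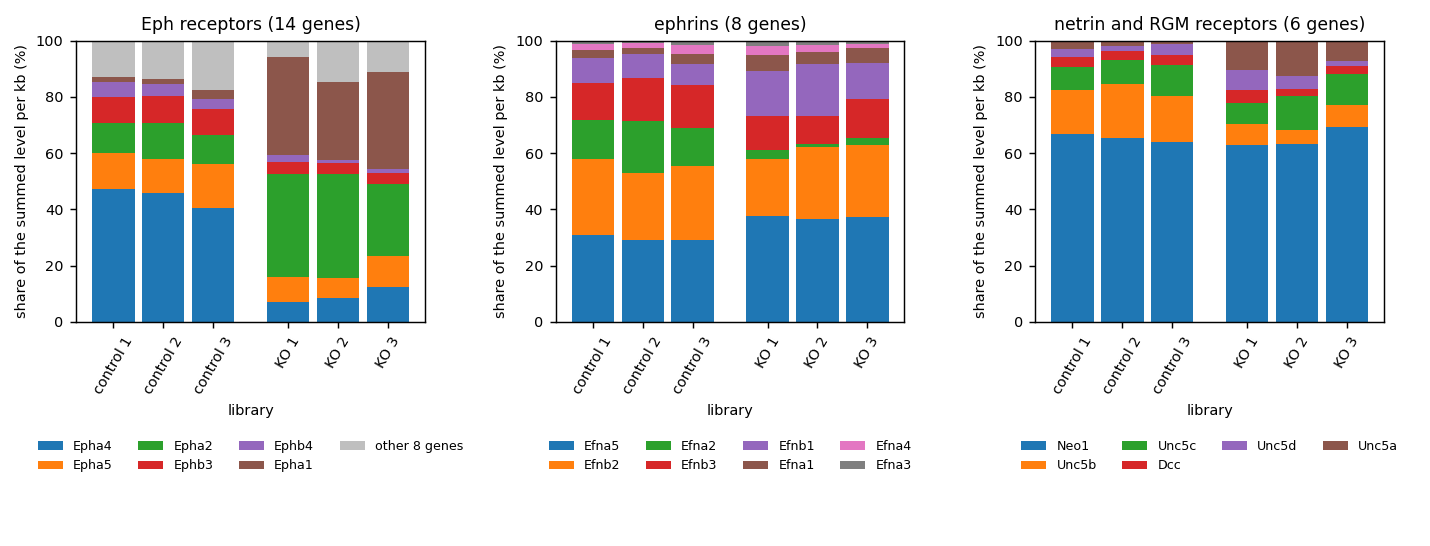
Share (%) of each gene in the summed level per kb of the Eph receptors, the ephrins and the netrin and RGM receptors, 1 stacked bar per library. Epha4 makes up at least 40.4% of the Eph receptors in each control library and at most 12.3% in the Sox9 KO libraries, while Neo1 holds 63.0% to 69.2% of its pool in all 6.

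Partner genes of these pathways, some secreted or at the cell surface and others inside the cell, were followed in 3 lists. Of all genes tested, 28.8% were called lower and 22.2% higher, with a median log2 fold change of −0.07. Of 27 Eph and ephrin partners, 15 fell and 7 rose, the latter a share close to that background (median −0.73); the highest by level were Sdcbp (syntenin, a scaffold for ephrin-B tails), Adam10 (a protease that cuts ephrins) and Rasa1 (a Ras GTPase activating protein), which rose by 1.29, 1.10 and 0.82. Of 21 Slit and Robo partners, 10 fell and 6 rose, the latter again close to the background (median −0.12), with Srgap2, a GTPase activating protein that binds Robo tails, and the kinase Pak2 higher by 1.61 and 0.73, and the syndecan Sdc3 at −0.12, not called. Of 21 netrin and RGM partners 20 were tested, 15 fell and none rose (median −1.92), among them Arhgef12, a guanine nucleotide exchange factor, at −1.17; Trio and Bmpr2, at −0.36 and 0.36, were not called.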

How the data were processed

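RNA-seq libraries of 6 mice were compared, 3 per group, with groups taken from the labels. Per the labels' processing notes and the methods, the authors mapped reads to mm10 with STAR 2.5.0a, counted them per gene and normalized with DESeq2 1.20.0. The deposited signal values, 1 for each gene in a library, are named RPM, but each equals a whole number of reads times 1 constant of its library (100% of values, within 0.01 read), and they are called normalized counts here. Recovered reads on genes numbered 18242129 to 86906527 per library, and 1 read was worth 0.395 to 1.58 normalized counts. Floors cover counting error only. No source used here states the annotation or the strand setting of the counting.

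Genes with a mean of at least 1 (18413 of 24421) were fitted with limma 3.58.1 on log2(value + 1) with a variance trend, two-sided, adjusted by Benjamini-Hochberg over all of them. Fold changes are on this scale, which understates the change of low genes. The design had assumed RPM values, and the test was kept. edgeR 4.0.16 and DESeq2 1.42.0 were run on the recovered reads as alternatives. Shares and ratios were compared by exact permutation tests over libraries. Coordinates come from the GENCODE annotation of GRCm38, the build of mm10, and promoters from RefSeq. The members and lists were chosen with earlier results of these data known. By rule, values per library are given for the 3 highest genes of each role and any gene called higher, and at most the 3 highest of each list are named. The values of 1 gene list and of 1 marker are not reported here.

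Same-numbered control and Sox9 KO libraries did not deviate together (correlations of −0.051, −0.013 and −0.013), so the numbers were not taken as pairs. No libraries were alike within sampling noise. Each library is 1 mouse, and the tests set the difference of the groups against the spread between libraries. Differences between mice, sorts and library preparations cannot be told apart in that spread.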

Additional observations from a re-analysis of the deposited data

How the results depend on the processing

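Of the 35 genes called, 30 were called under every alternative run, and 36 of the 39 that were lower stayed lower. Both the 39 and the 36 include Epha8 and Ntn5, which had too few reads for a fold change. The exceptions were Slit1 (0.049), Slit2 (0.37) and Unc5a (0.78) after quantile normalization. Unc5a also turned without Sox9 KO replicate 1 (0.01) or without control replicate 1 (0.22), with −0.26 as its lowest value when 1 library was left out. Quantile normalization moved the median log2 fold change of all genes by 0.26, scaling to the same total by −0.23 and the same scaling without Rn45s by −0.31. Under the last, 2630 genes were called higher against 4090, and 6597 lower against 5299; Rn45s took 14.2% to 22.4% of reads. The genes called lower among the 41 numbered 28 after quantile normalization, 33 by edgeR, 33 by DESeq2 and 28 to 35 over all settings, and 2 were called higher each time. Leaving out each library in turn gave 32 to 34 lower and 2 higher of the 41 and 8748 to 9111 of all genes (4929 to 5129 lower, 3819 to 4035 higher). Slit1 passed the call with no variance trend and under both scalings to a total, and Epha8 without control replicate 3.

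With the replicate number as a block, 33 of the 41 genes were lower, 2 higher and 9275 of all genes called; the block changed none of these counts by 1.5 times. Depth limits the genes with few reads: 12 of the 41 had under 10 reads in at least 1 library, and 9 had at least 100 in each.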
